A study of Mus musculus with 4 samples.

Results

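The 8 genes described here carry iodide through the thyroid follicular cell and attach it to thyroglobulin: Slc5a5, Slc26a4 and Slc26a7, which move iodide, Iyd, which recovers it, and Duox1, Duox2, Duoxa1 and Duoxa2, which supply hydrogen peroxide. The rule chose them by name for these roles and used no value in the data, although earlier results of these data were known when it was written, and they are 8 of the 32285 genes in the feature table. All 8 were present in the table of every library.

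Thyroid glands of C57BL/6 mice, for which no mutation or treatment is given and whose sex is not stated, were taken at postnatal days 5, 10, 20 and 30, dissociated with collagenase and dispase, depleted of dead cells and captured as single cells with 10x Chromium 3′ chemistry. Glands of 10 mice were pooled for each library, and each age had 1 library, so levels at different ages were compared without a test across ages. Each value is a number of unique molecular identifiers (UMIs), that is, of captured transcript 3′ ends, or that number per 1000000 UMIs (CPM) of the same cells in the same library. A transcript counts once whatever its length, so UMI levels may be set beside each other between genes without division by length, although genes can differ in how well their 3′ ends are captured.

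Follicular cells take up iodide from blood through the sodium/iodide symporter Slc5a5 in the basolateral membrane, and release it into the follicle lumen through apical anion transporters, of which pendrin (Slc26a4) and Slc26a7 are known from thyroid disease. In the lumen, iodide is oxidised with hydrogen peroxide and bound to tyrosines of thyroglobulin (Tg), the step called organification. The peroxide comes from the dual oxidases Duox1 and Duox2, each of which needs its maturation factor, Duoxa1 or Duoxa2, to leave the endoplasmic reticulum. After thyroglobulin is digested, iodotyrosine deiodinase (Iyd) frees iodide from the iodotyrosines that did not become hormone, and that iodide is used again.

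On the mouse assembly GRCm38, Slc5a5 lay at chr8:70882889-70892757 on the minus strand, Slc26a4 at chr12:31519827-31559969 on the minus strand, Slc26a7 at chr4:14502430-14621805 on the minus strand and Iyd at chr10:3540240-3554877 on the plus strand. The oxidases and their factors lay together within 68726 bases of chromosome 2, in the order Duox2 (chr2:122279247-122298449, minus strand), Duoxa2 (chr2:122298900-122302885, plus strand), Duoxa1 (chr2:122302191-122313730, minus strand) and Duox1 (chr2:122315672-122347972, plus strand). Each factor was thus divergent to its own oxidase: the starts of Duox2 and Duoxa2 were 451 bases apart and those of Duoxa1 and Duox1 1942 bases apart. Duoxa2 and Duoxa1 ran towards each other and shared 695 bases at their 3′ ends on opposite strands. The sources used here do not state whether counting used strand, and without strand reads from that shared stretch cannot be told apart.

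The RefSeq promoters of the 4 genes of the cluster, and that of Iyd, the member with the highest level, are shown because Duoxa1 and Duoxa2 were counted in different proportions in follicular cells and in fibroblasts. Each run is the 250 bases before the RefSeq start on GRCm38.p6. That start lies inside the gene position given above for Duox2 and Iyd, so most of the Duox2 run and the end of the Iyd run fall within those positions. In each run, capitals mark every match to 3 motifs searched on both strands: CAAGTG, the core bound by NKX2-1, GGGCGG, the GC box, and TATAA.
Duoxa2, chr2:122298650-122298899, plus strand: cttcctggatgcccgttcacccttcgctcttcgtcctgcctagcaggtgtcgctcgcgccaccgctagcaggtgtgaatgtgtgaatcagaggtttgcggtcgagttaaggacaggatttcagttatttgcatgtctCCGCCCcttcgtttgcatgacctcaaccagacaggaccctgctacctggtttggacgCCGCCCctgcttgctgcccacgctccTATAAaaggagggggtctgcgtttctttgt
Duox2, chr2:122298228-122298477, minus strand: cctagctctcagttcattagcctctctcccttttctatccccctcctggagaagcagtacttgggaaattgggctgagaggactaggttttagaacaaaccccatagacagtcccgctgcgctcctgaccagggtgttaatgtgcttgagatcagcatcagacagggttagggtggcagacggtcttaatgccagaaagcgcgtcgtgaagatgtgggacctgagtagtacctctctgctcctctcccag
Duoxa1, chr2:122313731-122313980, minus strand: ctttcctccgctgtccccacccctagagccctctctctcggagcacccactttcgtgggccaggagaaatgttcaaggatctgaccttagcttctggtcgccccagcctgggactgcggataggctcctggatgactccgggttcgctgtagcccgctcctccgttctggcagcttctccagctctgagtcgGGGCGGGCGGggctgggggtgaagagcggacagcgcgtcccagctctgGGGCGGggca
Duox1, chr2:122315422-122315671, plus strand: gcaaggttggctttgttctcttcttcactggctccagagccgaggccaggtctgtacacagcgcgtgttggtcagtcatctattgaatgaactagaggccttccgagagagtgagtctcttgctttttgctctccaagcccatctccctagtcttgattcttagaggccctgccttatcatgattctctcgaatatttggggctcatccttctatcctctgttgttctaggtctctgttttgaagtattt
Iyd, chr10:3540024-3540273, plus strand: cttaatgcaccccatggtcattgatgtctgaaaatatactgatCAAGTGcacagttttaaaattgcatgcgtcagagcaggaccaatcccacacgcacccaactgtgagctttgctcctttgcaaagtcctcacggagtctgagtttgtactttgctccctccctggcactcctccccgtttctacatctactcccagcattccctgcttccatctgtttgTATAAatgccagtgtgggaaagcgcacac
The Duoxa2 stretch held 2 GC boxes, read as CCGCCC on the printed strand, and a TATAA, whereas the Duoxa1 stretch held 3 GC boxes, 2 of which overlap, and no TATAA. No match to the 3 motifs was present in the Duox1 or the Duox2 stretch. That of Iyd held 1 CAAGTG and 1 TATAA. Of 27025 promoters of the same length, 11.6% held CAAGTG, 32.9% GGGCGG and 23.5% TATAA, so each motif was common and a match is a description of letters. Sequences of 7 of the 8 members were matched in this table; Slc26a7 is named only.

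The libraries held between 54921806 and 89039113 UMIs over all barcodes, and 29578 listed cells remained after filters on mitochondrial and haemoglobin reads and on doublets. Follicular cells were taken as cells with Tg at 1% or more of their UMIs and at least 1 UMI of Pax8, Foxe1 or Epcam. They numbered 4814, namely 3242 in the library labelled day 5, 649 at day 10, 389 at day 20 and 534 at day 30, with median depths of 8155.5, 11361, 14446 and 20116.5 UMIs. Of 7 follicular markers, 6 were highest in this class in every library, but 4 of the 7 define it. No member of the gene set was used to define the class. Of the follicular cells, 511 had Tg between 1% and 2% of UMIs, and 1348 carried 3 or more markers of another class. Levels below come from summed UMIs, so deep cells weigh more than their number. The follicular sum was 34089949 (day 5), 10650115 (day 10), 7881401 (day 20) and 15858368 (day 30). Leaving out the cells with such markers reduced it to 22416031, 4532577, 3671281 and 5224476, respectively. Follicular cells of at most 10000 UMIs contributed 10919269, 1179640, 504352 and 591901 to it. Droplets of 10 to 100 UMIs that were not listed as cells served as the measure of RNA free in the suspension. H19, which is known to fall after birth, stood in fibroblasts at 62.5 CPM in the library labelled day 5, 816 at day 10, 127 at day 20 and 2811 at day 30, against the order of the labels. The study gives the most cells for the oldest mice. The deposited cell list names no library, so each listed barcode was assigned to the library in which it had the most UMIs. A barcode listed more than once went to as many libraries. By this rule, 15297 listed cells fell to the day 5 library and 6555 to the day 30 library. Between 76.9% and 99.9% of a library's listed cells had a barcode also seen in another library. The median of the highest count there was 1 to 13 UMIs. In that list, almost all cells of the day 5 library carried group number 4 and almost all of the day 30 library group number 1. Each age below is therefore the label of a library, and any direction between ages rests on those labels. Between 87 and 119 listed cells of a library had a barcode with 200 or more UMIs in another library as well.

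Iyd was the highest of the set in follicular cells, at 715, 699, 661 and 799 CPM (day 5, 10, 20 and 30 labels, the order kept below). Slc26a7 followed at 553, 469, 469 and 526 CPM. These anion transporter and deiodinase transcripts were the ones with the smallest spread, their highest library exceeding the lowest by 1.18-fold for Slc26a7 and 1.21-fold for Iyd, and they did not overlap with each other or with any other member.

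Slc5a5 stood at 115, 70.05, 68.4 and 63.7 CPM in the same order. The library labelled day 5 was thus the high one, with a 95% Poisson interval of 112 to 119 CPM that did not meet the interval of any other library. Slc26a7 exceeded Slc5a5 in each library, by 4.79, 6.70, 6.86 and 8.26 UMIs of Slc26a7 for each UMI of Slc5a5. Slc26a4, the classical apical transporter, gave 1, 3, 0 and 2 UMIs in the 4 follicular sums, at or under the limit of 3 counts in every library, and only 1 further UMI was counted in all other kept cells. Its count of 0 in the day 20 library allows a level of up to 0.468 CPM by the exact 95% Poisson interval. At this depth pendrin mRNA was therefore barely detected, while its relative Slc26a7 was among the well-detected members.

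**Figure D1:**
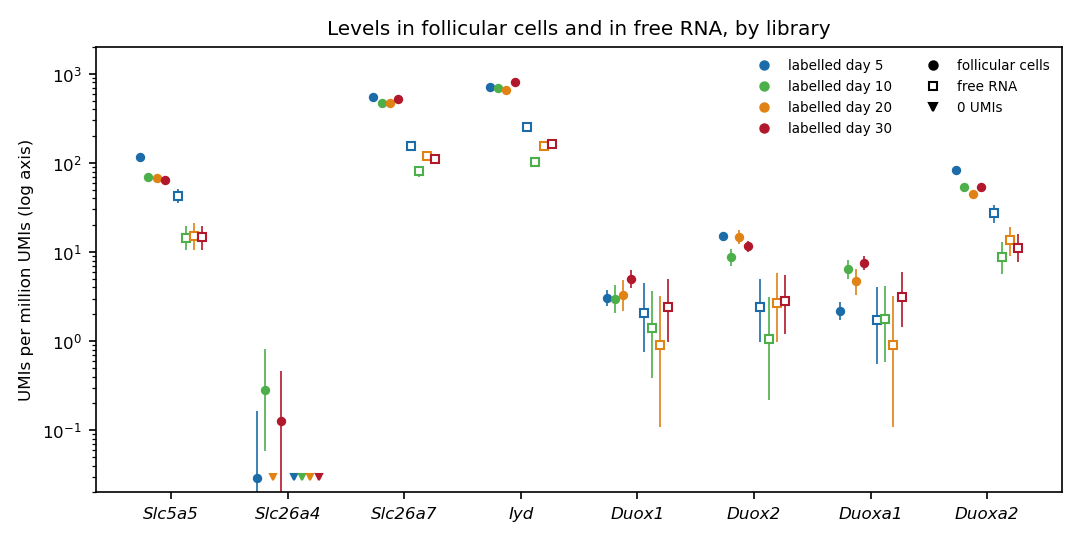
Level of each of the 8 genes in follicular cells, in CPM on a log axis, in the libraries labelled day 5, 10, 20 and 30 (1 library each, bars are exact 95% Poisson intervals for counting error) beside the level in droplets of free RNA. Iyd and Slc26a7 sit near the top in all 4 libraries, Slc5a5 and Duoxa2 lie between 44.3 and 115 CPM, and Slc26a4 stays at or below 3 UMIs.

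Among the genes of peroxide supply, Duoxa2, the factor of Duox2, was the most abundant at 83.3, 53.3, 44.3 and 54.0 CPM. Duox2 itself stood at 15.0, 8.73, 14.8 and 11.5 CPM. Between 2.98 and 6.11 Duoxa2 UMIs were counted per Duox2 UMI, so the small factor exceeded the large oxidase in every library, with the lowest ratio at day 20 (95% interval 2.41 to 3.71) and the highest at day 10 (4.90 to 7.69).

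The second pair was low. Duox1 stood at 3.05, 3.00, 3.30 and 4.98 CPM on 104, 32, 26 and 79 UMIs. Duoxa1 stood at 2.17, 6.38, 4.69 and 7.50 CPM on 74, 68, 37 and 119 UMIs, lowest in the library labelled day 5, where its interval of 1.70 to 2.73 CPM lay below those of the other 3. Per UMI of Duox1, 4.90, 2.91, 4.50 and 2.32 UMIs of Duox2 were counted, and per UMI of Duoxa1, 38.4, 8.35, 9.43 and 7.19 of Duoxa2.

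The order of the members by their range over the libraries was thus Iyd, Slc26a7, then Slc5a5 and Duoxa2, whose ranges overlap (63.7 to 115 and 44.3 to 83.3 CPM), then Duox2, then Duoxa1 and Duox1, whose ranges overlap, then Slc26a4. In these sums, Duoxa1 was above Duox1 in 3 libraries and below it at day 5. Slc5a5 was above Duoxa2 in each library, but that order changed with depth. Among follicular cells with at most 10000 UMIs, Slc5a5 stood at 99.4, 67.0, 79.3 and 35.5 CPM. Duoxa2 stood at 94.1, 83.1, 53.5 and 54.1 CPM in those cells, above Slc5a5 at day 10 and day 30.

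Shares of cells with a UMI rise with depth, so cells were thinned to 2000 UMIs each and shallower cells left out, which kept 2918, 535, 349 and 495 follicular cells. Slc5a5 was then found in 15.9% (exact 95% binomial interval 14.6% to 17.3%), 10.3%, 13.5% and 10.5% of follicular cells, Slc26a7 in 62.0%, 53.8%, 55.9% and 55.6% and Iyd in 73.2%, 74.8%, 69.6% and 78.8%. Without thinning, Slc5a5 was found in 44.3%, 40.6%, 52.1% and 43.8% of these cells. In endothelial cells, which do not make thyroid hormone and had median depths of 4107.5 to 7645 UMIs before thinning against 8767.5 to 23250 in the follicular cells, the thinned shares were 0.723%, 0.337%, 0 and 0.322% for Slc5a5 and 0.644% to 3.13% for Iyd. The 0 of 387 endothelial cells at day 20 allows a share of up to 0.949% by the exact binomial interval. Duoxa2 was found in 16.1%, 11.96%, 6.88% and 13.3% of thinned follicular cells and Duox2 in 3.19%, 1.87%, 2.87% and 2.02%.

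Cells that carried 1 member were examined for another after thinning to 5000 UMIs. Iyd was found in 95.1% of day 5 cells with Slc26a7 and in 85.4% of those without it, in 94.9% against 86.3% at day 10, in 95.6% against 85.1% at day 20 and in 96.9% against 91.9% at day 30. The exact 95% intervals of the pair did not overlap at day 5 and overlapped in the 3 smaller libraries. For the oxidase and its factor, Duox2 was found in 7.67% of day 5 cells with Duoxa2 and 6.31% of those without, in 7.21% against 3.94% at day 10, in 6.25% against 8.24% at day 20 and in 4.65% against 5.63% at day 30. These shares did not keep the same order across libraries, and each pair of intervals overlapped, so no link between Duox2 and its factor was detectable cell by cell at this depth.

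The question of whether the members belong to follicular cells was asked against free RNA and against 8 other cell classes, with the UMI sums of each class in each library as the samples, so that n was 4 libraries on each side. Slc5a5, Slc26a7, Iyd, Duox2 and Duoxa2 passed the filter on low counts, and Slc26a4, Duox1 and Duoxa1 did not. A gene that passes through the class where it is high has to differ, so the tests are given gene by gene. Of 14054 genes tested, 14.0% were higher in follicular cells than in free RNA at an adjusted p under 0.05 and 22.4% were lower (edgeR quasi-likelihood with Benjamini-Hochberg adjustment, library as block).

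In free RNA, Slc5a5 stood at 42.8, 14.5, 15.3 and 14.7 CPM, against 115, 70.05, 68.4 and 63.7 CPM in follicular cells, with no overlap between the groups. Its log2 difference in the fit was 1.48 ± 0.28 (SE, n = 4), 2.80-fold, with an adjusted p of 7.02e-05 by edgeR. The fit rescales the sums between groups (TMM), so its differences are not ratios of the CPM printed here. Slc26a7 stood at 154, 80.4, 120 and 111 CPM in free RNA, and its log2 difference was 1.63 ± 0.30 (adjusted p = 4.54e-05 by edgeR). Iyd stood at 250, 103, 153 and 164 CPM in free RNA, and its log2 difference was 1.67 ± 0.42 (adjusted p = 0.00215 by edgeR). The iodide transporter, the apical transporter and the deiodinase were each higher in the cells than around them in every library, and their free RNA was highest in the library labelled day 5.

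For the peroxide genes, Duoxa2 stood at 27.1, 8.85, 13.5 and 11.2 CPM in free RNA and was higher in follicular cells by 1.54 ± 0.27 on the log2 scale (SE, adjusted p = 3.38e-05 by edgeR). Duox2 gave only 7, 3, 6 and 8 UMIs in free RNA and passed the filter through its 510, 93, 117 and 183 follicular UMIs. Its log2 difference was 1.996 ± 0.45 (SE, adjusted p = 0.000783 by edgeR), and 2.27 ± 0.44 with no filter on low counts (adjusted p = 7.15e-05 by edgeR). By CPM, Tg, whose level defines the class, stood 3.63, 4.72, 3.87 and 4.02 times above free RNA in the 4 libraries. The corresponding CPM folds of Slc5a5, without the rescaling of the fit, were 2.70, 4.82, 4.48 and 4.34.

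Duox1 and Duoxa1, left out of that fit, were compared by an exact two-sided permutation test over libraries, chosen after the data had been seen. It can give no p below 0.0286 with 4 libraries on each side, and 18 such comparisons were made. Duox1 averaged 3.58 ± 0.94 CPM (SD, n = 4) in follicular cells and 1.70 ± 0.68 CPM in free RNA, without overlap (exact p = 0.0286). The edgeR fit with the library block and no filter on low counts, which keeps both sums of a library together, gave 0.84 ± 0.49 on the log2 scale (SE, adjusted p = 0.228), so Duox1 was not called against free RNA there. Duox1 had 0 UMIs in every library of macrophages, T cells, mast or innate lymphoid cells and C cells. In the mast or innate lymphoid class 3 counts would exceed the follicular level, so no library by itself could show a difference from that class. The same limit held for C cells in the libraries labelled day 5, day 20 and day 30 and for T cells at day 10. In C cells at day 10, 3 counts would lie just under the follicular level. Duoxa1 averaged 5.19 ± 2.32 CPM against 1.88 ± 0.93 CPM in free RNA, with overlap between the groups (exact p = 0.0571), and 1.07 ± 0.44 in the blocked fit (SE, adjusted p = 0.0689 by edgeR). Counts of Duox1 in free RNA were 2 to 7 UMIs per library, and within a library the counting intervals of Duox1 in cells and in free RNA overlapped.

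Against the other classes the differences were larger. Slc5a5 was higher in follicular cells by between 4.07 (B cells) and 6.61 (macrophages) on the log2 scale, Slc26a7 by between 5.69 (C cells) and 7.24 (fibroblasts), Iyd by between 5.15 (mast or innate lymphoid cells) and 7.25 (fibroblasts) and Duoxa2 by between 4.54 (mast or innate lymphoid cells) and 7.82 (fibroblasts). Of the 10 Slc5a5 UMIs in B cells, 8 came from the library labelled day 5, and without that library the difference from B cells was 5.93. The mast or innate lymphoid class held only 34 cells in the library labelled day 30, and 21 of its 23 Iyd UMIs came from those. Duox2 was higher by 4.22 than in endothelial cells. In B cells and in mast or innate lymphoid cells it had 0 UMIs in every library. Against a floor of 3 counts per library, its follicular level was at least 1.83-, 1.19-, 1.27- and 1.09-fold higher than in mast or innate lymphoid cells, and the counting intervals of the libraries labelled day 10 and day 30 included no difference. In B cells of the library labelled day 20, 3 counts would exceed the follicular level. No p is given for Duox2 against either class. The genes passed the filter through the follicular sums, so the values are read from the fit with no filter on low counts too, where the largest adjusted p of Slc5a5, Slc26a7, Iyd and Duoxa2 against these classes was 2.87e-09 by edgeR (n = 4 libraries per class), that of Duoxa2 against mast or innate lymphoid cells. The share of all 14054 genes called higher in follicular cells was 25.7% against endothelial cells, 22.6% against fibroblasts, 29.8% against macrophages, 33.5% against dendritic cells, 38.0% against T cells, 32.3% against B cells, 27.2% against mast or innate lymphoid cells and 20.1% against C cells. As sums, 96.0% of the Slc5a5 UMIs of all kept cells lay in follicular cells, 98.1% of Slc26a7, 96.9% of Iyd, 93.1% of Duox2 and 96.1% of Duoxa2, beside 97.5% of Tg. Follicular cells held 19.7% to 49.9% of all UMIs of the kept cells.

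**Figure D2:**
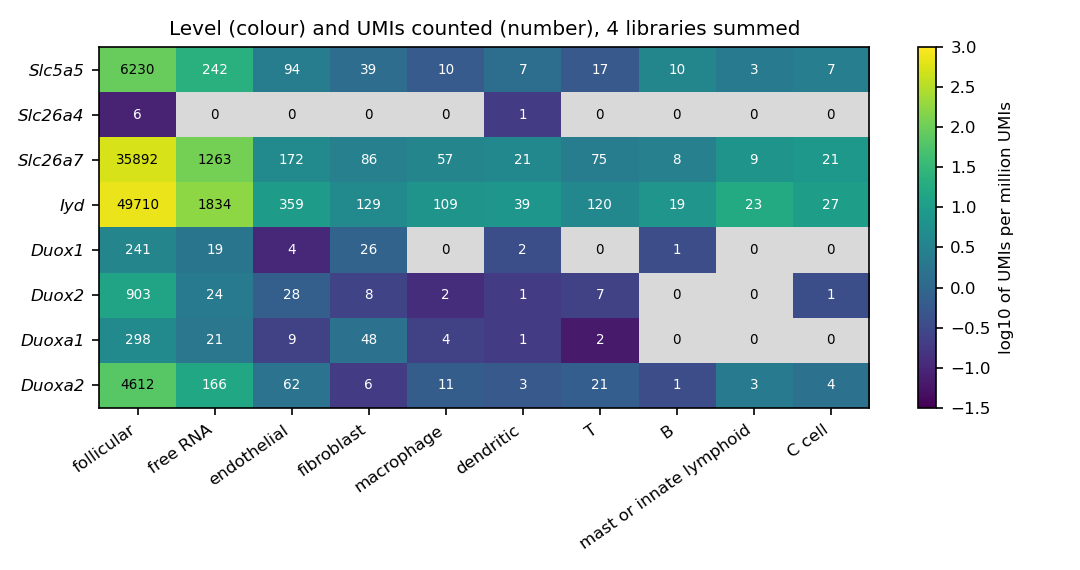
Level of each gene (rows) in follicular cells, free RNA and 8 other cell classes (columns), summed over the 4 libraries. Colour is log10 of CPM, the printed number is the UMIs counted and grey marks 0 UMIs. Apart from Slc26a4, with 7 UMIs in all kept cells, the brightest column is that of follicular cells and the next that of free RNA.

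Where members were counted outside follicular cells, the amounts were set against Tg, which defines the follicular class and was also counted in free RNA. If a class carries members and Tg in the follicular ratio, its members per Tg UMI relative to follicular cells are near 1. In free RNA this relative value was 0.972 for Slc5a5, 1.97 for Duox1 and 1.76 for Duoxa1. In endothelial cells it was 4.01 for Duoxa1 on 9 UMIs and 4.12 for Duox2 on 28 UMIs, of which 24 came from the library labelled day 5. Without that library the Duox2 value was 1.51. In fibroblasts it was 1.94 for Slc5a5 and 0.404 for Duoxa2, but 33.5 for Duox1 and 50.03 for Duoxa1. By library, the value of Duoxa1 was 49.0, 51.8, 43.4 and 23.6 and that of Duox1 30.5, 61.7, 0 and 16.1. Without the library labelled day 10, Duox1 fell to 21.97, and without that labelled day 5, Duoxa2 was at 0.652.

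The fibroblast values rest on few counts and were singled out after they had been seen, so they are a description. Duoxa1 had 8, 25, 4 and 11 UMIs in fibroblasts of the libraries labelled day 5, 10, 20 and 30, in 8, 21, 2 and 8 cells, and Duox1 had 7, 14, 0 and 5 UMIs. Duoxa2, which is higher than Duoxa1 in follicular cells, had 1, 2, 1 and 2 UMIs there, and Duox2 had 2 in each library. Per UMI of Duoxa1 there were 0.125, 0.0800, 0.250 and 0.182 UMIs of Duoxa2 in fibroblasts, the opposite order to that in follicular cells. The Duoxa1 level of 1.51 ± 0.67 CPM in fibroblasts was below the follicular 5.19 ± 2.32 CPM (SD, n = 4), with overlap (exact permutation p = 0.0571). Within each of the 4 libraries the follicular level was the higher, and the edgeR fit with the library block and no filter gave 1.55 ± 0.40 on the log2 scale (SE, adjusted p = 0.00182). Of all Duox1 UMIs in kept cells 86.7% and of all Duoxa1 UMIs 81.2% lay in follicular cells. Tg stood at 208 to 548 CPM in fibroblasts, against 35293.5 to 66033.6 CPM in follicular cells.

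**Figure D3:**
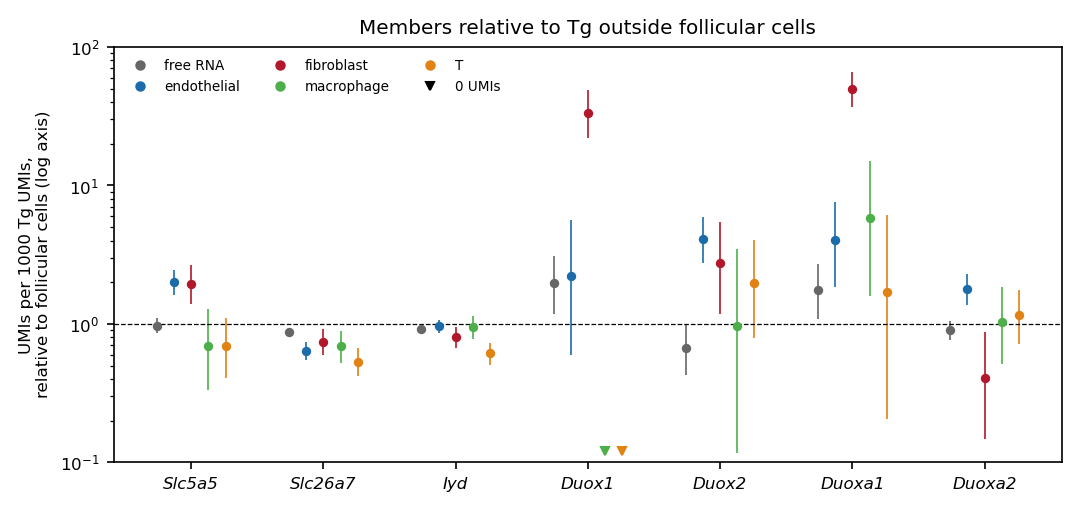
UMIs of 7 members per 1000 Tg UMIs in free RNA and in 4 other cell classes, relative to follicular cells, summed over the 4 libraries (log axis, the dashed line at 1 is the follicular ratio, bars are 95% Poisson intervals of the member's count). Duox1 at 33.5 and Duoxa1 at 50.03 stand apart in fibroblasts, where Duoxa2 is at 0.404.

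Ratios between the libraries labelled day 30 and day 5 were then taken for each member, with counting error only and no test. Slc5a5 was lower by 0.86 on the log2 scale (ratio -0.86, 95% interval -0.96 to -0.76) and Duoxa2 was lower (-0.63, interval -0.74 to -0.51). Duox2 was at -0.37, Slc26a7 at -0.07 and Iyd at 0.16. Duox1 was at 0.71 and Duoxa1 at 1.79, the latter with an interval of 1.36 to 2.23. Each of these 7 intervals lay clear of 0. Of the 8 members, 3 were thus higher and 4 lower beyond counting error, where 45.7% of 15848 genes with at least 10 UMIs in the pair were higher and 18.6% lower by the same interval. The members' median was 0.04, beside 0.24 over those genes. Without Slc26a4, which had 1 and 2 UMIs in this pair, the median was -0.07, so its sign rests on that gene.

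The difference in Slc5a5 was one between the library labelled day 5 and the rest. Against day 10 the day 30 value was -0.14 (an interval that includes 0), and day 20 against day 10 gave -0.03, both within counting error. Duoxa1 had the same shape in the opposite direction, at 1.56 for day 10 against day 5 and 0.23 for day 30 against day 10. Between day 30 and day 10 the median over the members was 0.18, beside 0.04 over all genes. Tg was itself at -0.45 between day 30 and day 5 and Tshr, the thyrotropin receptor, at -0.64, while the follicular transcription factors Pax8 and Foxe1 were at 0.85 and 0.64. The median depth of a follicular cell was 8155.5 UMIs under the day 5 label and 20116.5 under the day 30 label, free RNA of Slc5a5 was highest in the former, and the part of either in these ratios was not tested. Among follicular cells with at most 10000 UMIs, Duoxa1 stood at 2.56, 8.48, 3.97 and 1.69 CPM. In the day 30 library Slc5a5 then stood at 35.5 and Duox2 at 3.38 CPM. That day 30 group held only 114 cells and 591901 UMIs. Its Duoxa1 and Duox2 values lie under the limit of 3 counts, as does that of Duoxa1 at day 20, so they show no direction. Age, library and depth cannot be told apart here.

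**Figure D4:**
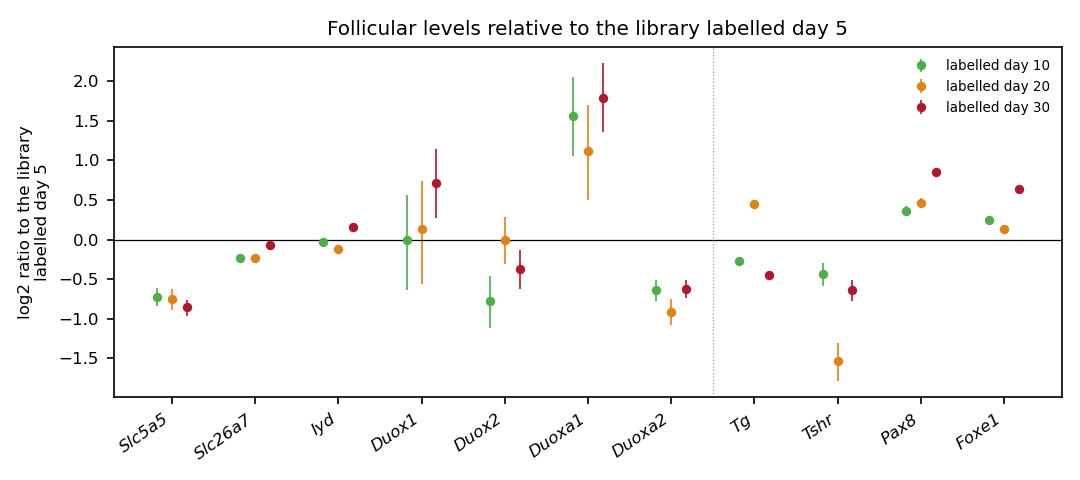
Log2 ratio of 7 members and of 4 other follicular genes in follicular cells of the libraries labelled day 10, 20 and 30 to that labelled day 5, with 95% intervals for counting error. At day 30, Duoxa1 (1.79) and Duox1 (0.71) lie above 0 and Slc5a5 (-0.86) and Duoxa2 (-0.63) below it.

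To relate the members to the substrate they serve, follicular cells of each library were divided at the median Tg share, and UMIs without Tg were the total. Slc26a7 stood at 671, 572, 563 and 606 CPM in the high-Tg group and at 492, 369, 408 and 448 CPM in the low-Tg group, and Iyd at 838, 797, 768 and 868 against 666, 629, 613 and 766 CPM. Each was higher in the high-Tg group in 4 of 4 libraries, by 0.48 ± 0.05 on the log2 scale for Slc26a7 (SE, adjusted p = 0.000749) and by 0.28 ± 0.04 for Iyd (adjusted p = 0.00483, both edgeR quasi-likelihood with library as block). These were 2 calls, where 5.74% of 12600 genes tested were higher and 6.47% lower in the high-Tg group. The Tg share that divides the cells is also the value that defines the follicular class, at 1% of UMIs or more, and the differences were smaller with a higher limit. Among cells with Tg at 2% or more they were 0.33 for Slc26a7 and 0.18 for Iyd, and at 5% or more 0.10 and 0.13, where neither was called. Neither was called without the library block, and Iyd was not called among cells with at most 5% mitochondrial UMIs (0.35, adjusted p = 0.133 by edgeR).

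For the symporter and the peroxide genes, no call was made, but for Slc5a5 and Duox2 this depended on the setting. Slc5a5 gave 0.21 (adjusted p = 0.0797 by edgeR, and between 0.00418 and 0.0218 with doublets kept, between outer tertiles of Tg share, with no filter or without day 30), with 137, 78.6, 77.4 and 66.1 CPM against 106, 64.7, 66.6 and 65.9 CPM. Duox2 gave 0.54 (adjusted p = 0.0501, and between 0.00335 and 0.0486 under 10 of the alternatives, the leave-out of day 30 included), Duox1 0.54 (adjusted p = 0.142) and Duoxa1 0.44 (adjusted p = 0.206, all edgeR). Duoxa2 gave -0.04 (adjusted p = 0.994 by edgeR), with 90.1, 54.4, 47.8 and 53.0 CPM in the high-Tg group and 85.0, 57.3, 46.8 and 60.7 CPM in the low-Tg group. Without the library labelled day 30, Slc5a5 (0.30, adjusted p = 0.0165) and Duox2 (0.72, adjusted p = 0.00842, both edgeR) were called as well. Differences between genes in this response were not tested.

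Of 15 marker lists of other classes, 5 were higher in the low-Tg group in 4 of 4 libraries, 8 in 3 and 2, those of mural and T cells, in 2 libraries. The 7 endothelial markers together stood at 123 to 254 CPM in the high-Tg groups and 188 to 1183 CPM in the low-Tg groups, higher in the low-Tg group in 4 of 4 libraries. The 6 fibroblast markers stood at 71.8 to 91.7 against 87.6 to 319 CPM (4 of 4), and the 6 C cell markers at 911 to 4121 against 1925 to 15938 CPM (3 of 4). Their part in the result was not tested; without follicular cells that carried 3 or more markers of another class, Slc26a7 was higher by 0.36 (adjusted p = 0.00134) and Iyd by 0.21 (adjusted p = 0.0150, both edgeR). Of the high-Tg and low-Tg groups, the high had the deeper cells in 3 libraries and the shallower at day 5, with 7486 against 8650 median UMIs. With each cell thinned to 2000 UMIs, Slc26a7 was higher by 0.49 (adjusted p = 0.000285) and Iyd by 0.27 (adjusted p = 0.0154, both edgeR).

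**Figure D5:**
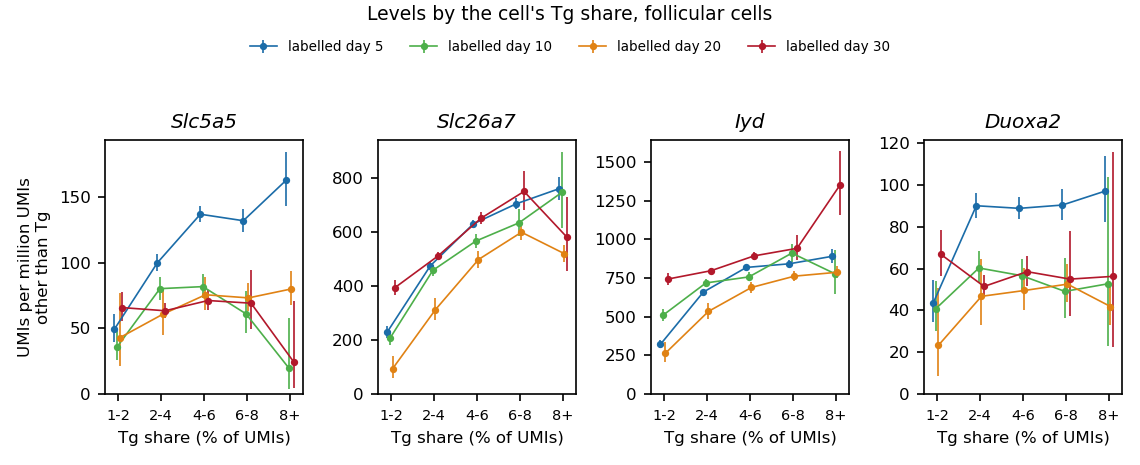
Level of Slc5a5, Slc26a7, Iyd and Duoxa2 in CPM of UMIs other than Tg (linear axes from 0) in follicular cells grouped by the share of Tg among their UMIs, 1 line per library, with 95% Poisson intervals. In the library labelled day 5, Slc26a7 stands at 230 and Iyd at 321 CPM in cells with Tg at 1% to 2% of UMIs, against 671 and 838 CPM in the high-Tg group of that library. Slc5a5 stands at 49.4 and Duoxa2 at 43.7 CPM in the same cells, against 137 and 90.1 CPM. In the library labelled day 30, Slc26a7 stands at 394 against 606 CPM and Iyd at 744 against 868 CPM. Slc5a5 in that library stands at 65.9 against 66.1 CPM, and Duoxa2 at 66.8 against 53.0 CPM, the opposite direction to day 5.

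Of 26 other genes of hormone synthesis and iodide handling, 24 were tested against free RNA, and 13 were higher and 4 lower in follicular cells (14.0% and 22.4% of all genes), with a median log2 difference of 0.93 beside -0.03 over all genes. The 5 with the largest difference were Ctsk, a lysosomal protease, at -4.10 (adjusted p = 7.11e-11), Gpx3, a secreted glutathione peroxidase, at -2.11 (adjusted p = 2.87e-05), the chloride channel Cftr at 1.96 (adjusted p = 0.00595), Tshr at 1.82 (adjusted p = 0.000121) and the amino acid transporter Slc7a8 at -1.81 (adjusted p = 0.00849, all edgeR). Against endothelial cells 19 were higher, where 25.7% of all genes were, and 4 lower, where 33.6% were. Between the high-Tg and low-Tg groups 9 of 23 tested were higher in the former and 1 lower, beside 5.74% and 6.47% of all genes.

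Of 25 relatives of the members in the Slc5, Slc26 and NADPH oxidase families, 10 had enough counts to be tested against free RNA, and 2 were higher and 3 lower in follicular cells, near the 14.0% and 22.4% of all genes, with a median of 0.30. Nox4 gave -3.24 and Cybb, the phagocyte oxidase, -3.09 (adjusted p = 2.58e-05 and 6.30e-05 by edgeR). Slc5a3, a myo-inositol transporter, was higher at 1.67 and stood at 124, 194, 262 and 222 CPM in follicular cells, above Slc5a5 in every library (adjusted p = 1.12e-06 by edgeR). Slc5a9 was at 1.29 (adjusted p = 0.0336) and Slc26a6 at -1.04 (adjusted p = 0.0383, all edgeR).

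Genes with the profile most like the members were found by Pearson r of log2(CPM + 1) over 40 sums, that is, 10 classes including free RNA in 4 libraries, which share libraries and depth. The genes compared were the 6511 with at least 20 CPM on average in follicular cells. A gene that is high in follicular cells and low in the other classes gives a high r by that alone. The values of r here therefore do not show joint variation among follicular cells. The mean profile of the members was most like those of Bnipl (r = 0.961), Lmod2 (0.951), Tmprss2 (0.947), Itgb6 (0.942) and Trp63 (0.937). Among the members, Slc26a7 and Iyd were at 0.965, Slc26a7 and Duoxa2 at 0.961 and Iyd and Duoxa2 at 0.951, whereas Duoxa1 and Duoxa2 were at 0.723 and Duox1 and Duoxa1 at 0.873.

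The 2 genes closest to each member differed between members. They were Tmem116 (0.930) and Prom2 (0.911) for Slc5a5, Folr1 (0.972) and Gjb1 (0.970) for Slc26a7, and Ager (0.968) and Dio1 (0.967), a deiodinase of thyroid hormone, for Iyd. For the peroxide genes they were Rasl10a (0.917) and Lmod2 (0.888) for Duox1, Lmod2 (0.940) and Trp63 (0.937) for Duox2, Sostdc1 (0.891) and Tc2n (0.886) for Duoxa1, and Ager (0.958) and Gjb1 (0.957) for Duoxa2. Slc26a4, with 7 UMIs in all, reached only 0.490 with Taldo1 and 0.480 with Slc25a20.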

How the data were processed

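The authors deposited unnormalized UMI counts for every gene and droplet from CellRanger on the mouse mm10 genome without a cell filter, and a list of the barcodes taken as cells, whose group numbers from 1 to 4 were not used to assign samples. Listed cells with at least 200 UMIs, at most 10% mitochondrial and 5% haemoglobin UMIs were kept. The study's limit of 10000 UMIs per cell was an alternative. Scrublet in scanpy 1.11.5 marked 8.84% of day 5 cells and 0 to 0.0166% of the others, so its threshold was not used and the 6% highest scores of each library were left out. Other classes needed Tg under 1% of UMIs, at least 3 detected markers, and more markers of that class than of any other. Of the cells of other classes, 1090 of 22711 had exactly 3, and 2053 cells stayed in no class.

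UMIs were summed per class and library, giving 40 sums of 10 groups, and compared with edgeR 4.0.16 (TMM, filterByExpr, quasi-likelihood test, Benjamini-Hochberg over all genes, threshold 0.05, library as block) in R 4.3.3. The library is the replicate in these tests, and the libraries differ in age. With the library block, p-values measure how far differences between groups vary from library to library, not the spread of levels between libraries. For each gene that variation was estimated over all groups of a fit together. Scripts were tested on simulated data. Poisson and binomial intervals are exact, at 95%, and cover counting error only. Log2 ratios between libraries used 0.5 UMIs as pseudocount. Members and lists were chosen with earlier results of these data known. The text names all 8 members, the class-defining genes, H19, Mia and Grp, the 5 genes of the 26 pathway genes and of the 25 relatives with the largest absolute difference to free RNA, and the closest profiles by r. The fibroblast pattern was singled out after its values were seen. Alternatives included DESeq2 1.42.0, other limits on cells and Tg, and leaving out each library. Gene positions are from GRCm38 and promoters from RefSeq on GRCm38.p6.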

Additional observations from a re-analysis of the deposited data

Results flagged for a closer look

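Follicular cells with a UMI of Mia, which encodes a secreted protein, were 471 under the day 5 label, 134 at day 10, 75 at day 20 and 137 at day 30. The log2 ratio of Slc5a5 between cells with and without a Mia UMI was -0.17, -0.43 and -0.64 in the first 3 libraries, and 0.45 in that labelled day 30, where Slc5a5 stood at 77.2 CPM with and 56.5 CPM without Mia. The ratio had the opposite sign in 1 library of 4, and that difference was not tested. Each of the 4 counting intervals lay clear of 0. Slc26a7 (-0.17, -0.14, -0.08 and -0.19) and Iyd (-0.32, -0.42, -0.43 and -0.18) had ratios below 0 in all 4 libraries, although the interval of Slc26a7 at day 20 includes 0. Cells with a Mia UMI were deeper, with medians of 12463 to 33151 UMIs against 7775 to 15070.

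Among cells that met the rule of no class, Iyd stood at 223 CPM in the library labelled day 30 (332 UMIs in 432 cells, 95% Poisson interval 200 to 248 CPM), above the 164 CPM of free RNA in that library. In the other libraries these cells had 61.1, 99.4 and 25.1 CPM of Iyd, below free RNA. The same day 30 cells carried Tg at 2287 CPM, Epcam at 440 CPM, Mia at 144 CPM and Grp at 161 CPM. What these cells are was not tested.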

How the results depend on the processing

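Slc5a5, Slc26a7, Iyd, Duox2 and Duoxa2 kept their direction and call against free RNA and against each class under every alternative that tested them (104 and 792 values), although Duox2 could not be tested with at most 10000 UMIs per cell and its calls against B and mast or innate lymphoid cells rest, with the cells as reported, on 0 UMIs there. The number of members higher in the high-Tg group, 2 as reported, became 1 with at most 5% mitochondrial UMIs, 4 with doublets kept, 0 with Tg at 5% or more of UMIs, 4 between the outer tertiles of Tg share and 4 with no filter on low counts. It was 3, with Duox2 added, with at least 1000 UMIs per cell, Tg at 2% or more, Epcam left out of the rule, every barcode of 1000 UMIs, shared barcodes left out, or DESeq2 size factors. Leaving out each library gave 2 to 4, with 4 without the library labelled day 30. Without the library block (no replicate block) it was 0, with log2 differences of 0.48 for Slc26a7 and 0.28 for Iyd as before, and the block changed no call against free RNA or other classes. The cause of these changes was not tested. The share of all genes called higher is given only for the reported setting (5.74% of 12600). The counts of members under the other settings therefore cannot be set against all genes. The median log2 ratio between the libraries labelled day 30 and day 5, 0.04, became 0.079 with Tg at 5% or more and, in a choice made after seeing the data, -0.07 without Slc26a4. For other pairs of libraries the median was 0.18 (day 30 against day 10, all genes 0.04), 0.28 (day 30 against day 20, all genes 0.09), -0.06 (day 20 against day 5, all genes 0.16), -0.13 (day 10 against day 5, all genes 0.21) and -0.06 (day 20 against day 10, all genes -0.06). Of 384 single levels, 102 moved out of their counting interval. Depth limits Slc26a4, Duox1 and Duoxa1, with at most 3, 104 and 119 follicular UMIs per library.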
